A study of Mus musculus with 6 samples.

Results

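The 44 genes described here encode the antioxidant, thioredoxin and glutathione enzymes of the cell together with NRF2, its inhibitor and a few proteins that produce or sense oxidants. They were taken by name from gene levels in mouse kidney, and all 44 reached 1 FPKM in at least 3 of 6 libraries, so each was among the 11698 genes tested. FPKM gives the fragments of a transcript relative to its length in kilobases and to all mapped fragments of its library. Total RNA was sequenced from 3 kidney samples labelled fat-1 knockin and 3 labelled WT, all from mice of 24 months of age. The gene fat-1 comes from Caenorhabditis elegans, and its enzyme makes omega-3 polyunsaturated fatty acids out of omega-6 ones, a step that mammals lack. The study asks what carrying fat-1 does to the aged kidney. The inserted gene was not analysed here, and the labels name no promoter, sex, diet, batch or collection time. They also give no animal for a sample, so each p-value reflects the spread between these samples alone, which may be technical.

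Oxidants such as hydrogen peroxide are removed in cells by peroxidases that draw their electrons from thioredoxin or glutathione, and both carriers are kept reduced with NADPH. The transcription factor NRF2 raises many of these genes when its inhibitor KEAP1 is modified by oxidants or electrophiles. Proximal tubule cells of the kidney are rich in mitochondria, make and break down large amounts of glutathione, and secrete the plasma peroxidase GPX3.

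Marker genes of the kidney and of other cell types were compared between the libraries. All 8 kidney marker genes examined, among them Lrp2, Slc34a1, Umod and Aqp2, were present, with summed levels between 2311 and 2829 FPKM per library. Single kidney markers varied more than this sum. Umod had 738, 425 and 1034 FPKM in fat-1 kidneys, against 652, 821 and 649 FPKM in WT kidneys. Aqp2 had 24.5, 32.0 and 88.8 FPKM in fat-1 kidneys, against 59.8, 56.7 and 50.5 FPKM in WT kidneys. Markers of other cell types and of tubule segments differed between libraries. The 10 macrophage markers summed to 403, 346 and 603 FPKM in fat-1 kidneys, against 2402, 282 and 343 FPKM in WT kidneys, so WT replicate 1 stood apart. The 6 of 10 erythrocyte markers in the tables summed to 540, 27.3 and 15.0 FPKM in fat-1 kidneys, against 242, 138 and 203 FPKM in WT kidneys. All 10 endothelial markers had a positive log2 difference, and their sums, 187, 225 and 258 FPKM in fat-1 kidneys against 108, 96.3 and 116 FPKM in WT kidneys, did not overlap. The 9 intercalated cell markers, 8 of them with a negative difference, summed to 166, 158 and 176 FPKM in fat-1 kidneys, against 229, 221 and 208 FPKM in WT kidneys, and did not overlap either. The 8 markers of the S3 segment of the proximal tubule, 7 of them negative, summed to 398, 573 and 688 FPKM in fat-1 kidneys, against 558, 1105 and 950 FPKM in WT kidneys, so WT replicates 2 and 3 were the highest. The 9 markers of the S1 and S2 segments, 4 of them with a positive difference, summed to 2309, 2690 and 1782 FPKM in fat-1 kidneys, against 2068, 2406 and 2382 FPKM in WT kidneys. These sums overlapped, but Slc34a1, at 854 to 1359 FPKM, made up a large part of them. Single markers went either way: Slc22a8 had 257, 270 and 181 FPKM in fat-1 kidneys, against 112, 123 and 118 FPKM in WT kidneys. Gatm had 161, 171 and 103 FPKM in fat-1 kidneys, against 287, 164 and 234 FPKM in WT kidneys. The part of these differences in the results on the 44 genes was not tested, except that values without WT replicate 1 are given. In whole kidney, fewer cells of a type and less RNA per cell cannot be told apart.

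No gene among the 44 passed the test. At an adjusted p of 0.05 (limma, Benjamini-Hochberg over all tested genes) 0 of 44 were called, where 0.18% of all tested genes were. At an unadjusted p under 0.05 there were 4 of the 44, or 9.09%, and 9.97% of all tested genes. On the higher side there were 3, Prdx6, Txnip and Srxn1, or 6.82% against 5.8% of all tested genes, and on the lower side 1, Ggct, or 2.27% against 4.16%. The fat-1 and WT libraries did not overlap for 3 of the 44, or 6.82%, against 15.2% of all tested genes. Those were Prdx6, Txnip and Nqo1, all with every fat-1 library above every WT library, an arrangement that 8.33% of all tested genes showed; 0 of the 44 showed the reverse, against 6.86%. These shares were near or below the background and are no result about the list.

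The median difference was small, and the intervals were wide enough to leave moderate changes undetected. Single log2 differences ran from -0.64 for Ggct to 1.08 for Txnip. On the log2(FPKM + 1) scale the median difference, fat-1 minus WT, was 0.038 over the 44 genes and 0.0059 over all tested genes, and 29 of the 44, or 65.9%, were positive against 51.2% of all tested genes. This count of positive differences depended on single libraries: it was 19 of 44 without WT replicate 1 or without fat-1 replicate 1, and 34 of 44 without fat-1 replicate 3. The 95% interval of the difference lay within -1 to 1 for 34 of the 44 genes, so for these a change of more than 2-fold in either direction lay outside the interval. The median spread within groups was a log2 SD of 0.23 for the 44 genes and 0.22 for all tested genes.

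**Figure D1:**
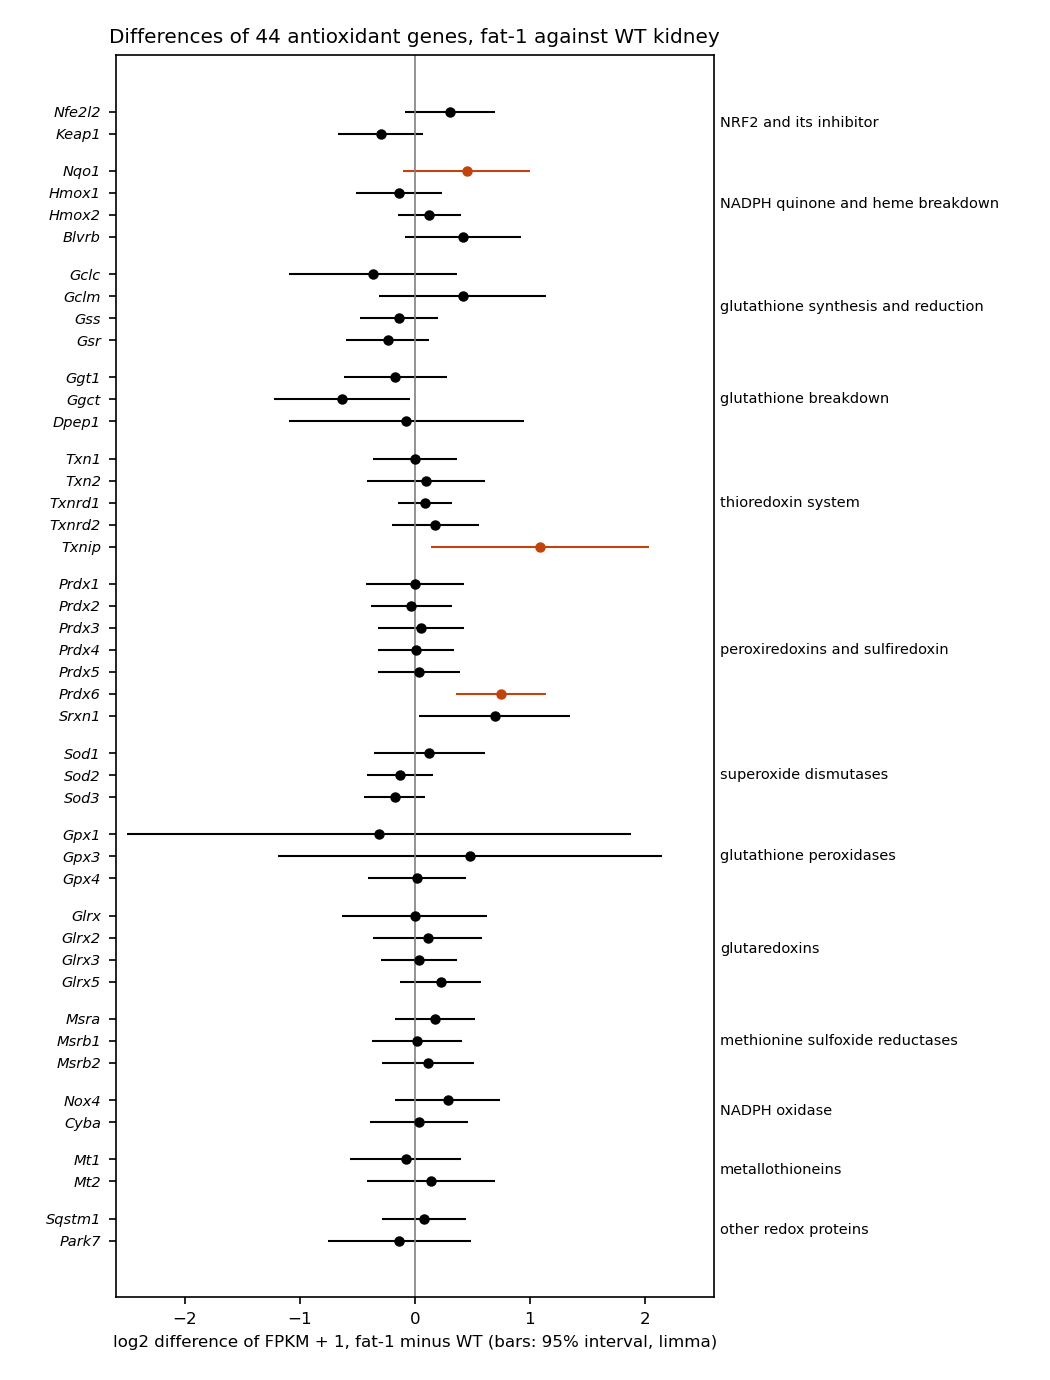
Log2 difference of FPKM + 1 (x axis, fat-1 minus WT) for each of the 44 genes (y axis), grouped by role, with 95% intervals from limma. Coloured points mark Nqo1, Txnip and Prdx6, the 3 genes whose fat-1 and WT libraries did not overlap; the intervals of Gpx1 and Gpx3 are the widest.

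Prdx6 had the smallest p of the 44 and Txnip the largest difference, and with Srxn1, Nqo1 and Ggct they carry most of what follows, so the promoters of those with a RefSeq window are shown first. RefSeq windows of 300 bases, from 250 before to 50 after the annotated start, on GRCm38.p6 (the assembly that mm10 denotes), were found for 38 of the 44 genes. Those without an entry were Prdx6, Hmox1, Msra, Gclc, Gsr and Sod3. Windows were searched on both strands for the antioxidant response element core, TGACNNNGC, the letters to which NRF2 with a small MAF partner is known to bind, and for the stricter form TGANTCAGC. The 2 forms overlap where the fourth letter is C. Capitals below mark matches to either form, and each sequence is read 5′ to 3′ in the direction of transcription.

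Srxn1: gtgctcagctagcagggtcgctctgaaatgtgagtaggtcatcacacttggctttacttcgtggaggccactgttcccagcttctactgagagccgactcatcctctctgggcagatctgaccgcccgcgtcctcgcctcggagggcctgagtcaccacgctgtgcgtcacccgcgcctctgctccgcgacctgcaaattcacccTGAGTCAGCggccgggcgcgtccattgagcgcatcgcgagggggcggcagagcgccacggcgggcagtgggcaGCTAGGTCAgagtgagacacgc
Ggct: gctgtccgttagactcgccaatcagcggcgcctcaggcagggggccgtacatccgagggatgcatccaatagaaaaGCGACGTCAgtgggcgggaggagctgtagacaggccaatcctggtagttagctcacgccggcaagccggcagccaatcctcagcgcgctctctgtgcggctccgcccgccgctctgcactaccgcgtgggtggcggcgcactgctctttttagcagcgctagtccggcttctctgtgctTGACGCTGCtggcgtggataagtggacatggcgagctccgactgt
Txnip: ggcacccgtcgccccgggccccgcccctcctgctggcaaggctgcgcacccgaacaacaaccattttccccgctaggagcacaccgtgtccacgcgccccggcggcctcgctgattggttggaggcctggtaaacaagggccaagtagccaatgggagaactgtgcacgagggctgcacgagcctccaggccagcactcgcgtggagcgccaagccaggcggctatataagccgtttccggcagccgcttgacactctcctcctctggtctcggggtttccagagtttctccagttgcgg
Nqo1: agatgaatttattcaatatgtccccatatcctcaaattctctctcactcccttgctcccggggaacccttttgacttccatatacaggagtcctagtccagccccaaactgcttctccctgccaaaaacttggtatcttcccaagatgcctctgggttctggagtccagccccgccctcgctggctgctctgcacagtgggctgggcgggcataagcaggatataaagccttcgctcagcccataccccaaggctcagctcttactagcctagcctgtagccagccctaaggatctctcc

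These windows lie at chr2:152105274-152105573 (plus strand) for Srxn1, chr6:54992818-54993117 (minus strand) for Ggct, chr3:96557707-96558006 (plus strand) for Txnip and chr8:107403156-107403455 (minus strand) for Nqo1. The Srxn1 window holds the stricter form TGAGTCAGC from position -45 relative to the start and the looser form, on the other strand, from position 29. The Ggct window holds the looser form from position -174, on the other strand, and from position 6. No match was in the Txnip and Nqo1 windows, which says only that these letters are absent there. Over all members, 10 of 38 genes with a window had the looser form (Gclm, Ggct, Ggt1, Msrb2, Mt2, Nfe2l2, Prdx1, Sod1, Srxn1 and Txnrd1), in 12 of 53 windows or 22.6%, against 12.4% of all 32851 mouse windows. The stricter form was in the windows of Mt2, Prdx1 and Srxn1 only among the 38, and in 1.19% of all windows. Ggct, with a negative difference, and Srxn1, with a positive one, both held the looser form, and neither gene was called.

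Nfe2l2 encodes NRF2, and Keap1 the adaptor that hands NRF2 over for degradation. Nfe2l2 had 58.5, 51.3 and 72.5 FPKM in fat-1 kidneys, against 56.0, 45.4 and 44.5 FPKM in WT kidneys. The fat-1 libraries were higher on average, but fat-1 replicate 2 lay below WT replicate 1. The log2 difference was 0.31 ± 0.16 (SE; limma adjusted p = 0.642), 0.18 without fat-1 replicate 3 and 0.41 without WT replicate 1. Keap1 had 15.5, 10.3 and 12.7 FPKM in fat-1 kidneys, against 16.1, 15.4 and 15.8 FPKM in WT kidneys. WT libraries were almost level, fat-1 replicate 1 reached them, and the log2 difference was -0.29 ± 0.16 (SE; adjusted p = 0.637). It was -0.16 without fat-1 replicate 2 and -0.43 without fat-1 replicate 1. In fat-1 replicate 1 the transcript Keap1-206 held 2.68 FPKM, or 17.3% of the gene sum, and it was listed at 0 in the other libraries. Both genes thus differed by less than the test could call.

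Genes of quinone and heme breakdown are classical NRF2 targets in part. Nqo1, an NADPH-dependent quinone reductase (chromosome 8, 107388225 to 107403206, mm10), had 78.9, 46.3 and 44.8 FPKM in fat-1 kidneys, against 43.4, 41.9 and 34.6 FPKM in WT kidneys. The groups did not overlap, yet by little: fat-1 replicate 3 lay just above WT replicate 1, and fat-1 replicate 1 alone was far higher. The log2 difference was 0.45 ± 0.23 (SE; adjusted p = 0.627), 0.19 without fat-1 replicate 1 and 0.59 without fat-1 replicate 3.

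Blvrb, a biliverdin reductase that also reduces flavins, had 26.6, 17.7 and 15.9 FPKM in fat-1 kidneys, against 16.6, 12.2 and 14.6 FPKM in WT kidneys, and here too fat-1 replicate 1 stood above the other libraries. Its log2 difference was 0.42 ± 0.21 (SE; adjusted p = 0.617), 0.21 without that library and 0.56 without fat-1 replicate 3, and the groups overlapped. Hmox1, the inducible heme oxygenase and a gene that responds sharply to heme and oxidants, had 35.2, 25.8 and 24.6 FPKM in fat-1 kidneys, against 33.8, 30.1 and 29.7 FPKM in WT kidneys. The libraries of the 2 groups were interleaved, with a log2 difference of -0.14 ± 0.16 (SE). Hmox2, the constitutive heme oxygenase, lay between 34.5 and 42.6 FPKM in all 6 libraries.

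Glutathione is made from its amino acids by glutamate-cysteine ligase, whose catalytic subunit is Gclc and whose regulatory subunit is Gclm, and then by Gss. Gclc (chromosome 9, 77754535 to 77794485) had 67.4, 67.1 and 77.7 FPKM in fat-1 kidneys, against 54.3, 115 and 120.3 FPKM in WT kidneys. WT replicate 1 was the lowest of all 6 libraries, and the other WT libraries were the highest. The log2 difference was -0.36 ± 0.30 (SE; adjusted p = 0.827), -0.73 without WT replicate 1 (adjusted p = 0.0958) and -0.16 without WT replicate 3. Like the S3 marker sums, Gclc was highest in WT replicates 2 and 3; the part of that segment in its level was not tested.

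Gclm had 39.9, 59.6 and 46.5 FPKM in fat-1 kidneys, against 23.9, 54.5 and 34.8 FPKM in WT kidneys, with a log2 difference of 0.42 ± 0.30 (SE; adjusted p = 0.777). Its groups overlapped, and WT replicate 1 was again the lowest library; the difference was 0.14 without that library and 0.71 without WT replicate 2. Gsr, which returns oxidised glutathione to its reduced form, had 82.3, 69.7 and 59.2 FPKM in fat-1 kidneys, against 89.7, 76.0 and 82.1 FPKM in WT kidneys. Its lowest libraries were from fat-1 kidneys but the groups overlapped, with a log2 difference of -0.24 ± 0.15 (SE; adjusted p = 0.726), or -0.12 without fat-1 replicate 3. Gss lay between 115 and 161 FPKM in all 6 libraries, with a log2 difference of -0.14. The genes Gclc, Gss and Gsr thus had negative differences and Gclm a positive one, none of them called.

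The 3 genes that break glutathione down had negative differences with all 6 libraries, but that of Dpep1 was positive in some fits that left out libraries. Ggct, a gamma-glutamylcyclotransferase that acts on gamma-glutamyl amino acids (chromosome 6, 54982580 to 54992950), had 7.09, 8.27 and 7.39 FPKM in fat-1 kidneys, against 7.93, 15.3 and 15.2 FPKM in WT kidneys. The fat-1 libraries were close to each other, and WT replicate 1 lay among them at about the same level. The log2 difference was -0.64 ± 0.25 (SE; unadjusted p = 0.0387, limma adjusted p = 0.463), and -0.92 without WT replicate 1 (adjusted p = 0.0683).

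Ggt1, the brush border enzyme that opens extracellular glutathione, had 456, 442 and 497 FPKM in fat-1 kidneys, against 396, 618 and 582 FPKM in WT kidneys. As for Gclc, WT replicate 1 was the lowest and the other WT libraries were the highest, and the log2 difference was -0.17 ± 0.19 (SE; adjusted p = 0.883). Without WT replicate 1 it was -0.37 (adjusted p = 0.292). Ggct and Ggt1 were, like the S3 marker sums, highest in WT replicates 2 and 3, and the part of that segment in their levels was not tested. Dpep1, a dipeptidase that splits cysteinylglycine, ran from 35.8 FPKM in WT replicate 2 to 105 FPKM in WT replicate 1 and had a log2 difference of -0.07. Leaving out WT replicate 1 gave 0.38. Leaving out a fat-1 library gave 0.034 for replicate 1 and 0.089 for replicate 3.

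Thioredoxin genes were level apart from Txnip, whose product binds thioredoxin and blocks it, and which also restrains glucose uptake. Txnip (chromosome 3, 96557957 to 96561883) had 144, 134 and 164 FPKM in fat-1 kidneys, against 132, 59.3 and 41.3 FPKM in WT kidneys. Every fat-1 library was above every WT library, but WT replicate 1 lay just below fat-1 replicate 2. The means were 147 ± 15.1 FPKM in fat-1 kidneys and 77.5 ± 48.0 FPKM in WT kidneys (SD, n = 3 each). The log2 difference was 1.08 ± 0.40 (SE; 95% interval 0.14 to 2.03; unadjusted p = 0.0305, limma adjusted p = 0.429). It was 1.55 without WT replicate 1 (adjusted p = 0.0565) and 0.72 without WT replicate 3.

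Txnrd1, the cytosolic thioredoxin reductase and an NRF2 target, had 43.8, 45.1 and 44.02 FPKM in fat-1 kidneys, against 43.99, 40.3 and 40.8 FPKM in WT kidneys. Its log2 difference of 0.09 ± 0.10 (SE) had the narrowest interval of the 44, from -0.15 to 0.32. Thioredoxin itself, Txn1, ran from 253 to 340.2 FPKM over the 6 libraries with a log2 difference of 0.0024, and its mitochondrial form Txn2 from 49.4 to 87.3 FPKM with 0.09. The mitochondrial reductase Txnrd2 ran from 10.5 to 16.6 FPKM with a log2 difference of 0.18. All 5 genes of the system had positive differences, and 0 of 5 were called.

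Prdx6 stood apart from the other peroxiredoxins, which reduce peroxides through a reactive cysteine. Prdx6, the form that uses glutathione and also has phospholipase activity on oxidised lipids (chromosome 1, 161240112 to 161251219), had 90.3, 67.0 and 79.9 FPKM in fat-1 kidneys, against 55.4, 43.2 and 41.6 FPKM in WT kidneys. All fat-1 libraries were above all WT libraries. The means were 79.1 ± 11.7 FPKM in fat-1 kidneys and 46.7 ± 7.56 FPKM in WT kidneys (SD, n = 3 each). The log2 difference was 0.75 ± 0.17 (SE; 95% interval 0.35 to 1.14; unadjusted p = 0.00290, limma adjusted p = 0.157). Over the alternatives tried it lay between 0.57 and 0.87, with adjusted p between 0.0963 and 0.744, so it was never called.

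Srxn1, sulfiredoxin, repairs peroxiredoxins that have been overoxidised and is a known NRF2 target. Srxn1 (chromosome 2, 152105524 to 152111376) had 43.7, 28.2 and 27.3 FPKM in fat-1 kidneys, against 28.3, 17.1 and 15.5 FPKM in WT kidneys. WT replicate 1 was level with fat-1 replicates 2 and 3, and fat-1 replicate 1 was the highest. The log2 difference was 0.69 ± 0.27 (SE; unadjusted p = 0.0409, limma adjusted p = 0.469). It was 0.95 without WT replicate 1 (limma adjusted p = 0.156). It was 0.48 without fat-1 replicate 1, and 0.32 without both that library and WT replicate 3.

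The other 5 peroxiredoxin genes showed log2 differences between -0.03 and 0.06. Prdx5, found in mitochondria, peroxisomes and cytosol and second of the 44 in mean level, had 977, 799.6 and 779 FPKM in fat-1 kidneys, against 754, 795 and 939 FPKM in WT kidneys. Its highest libraries were fat-1 replicate 1 and WT replicate 3, as for Prdx1, Prdx2, Prdx3 and Prdx4. Processed copies of Prdx6, Prdx1, Txn1 and Gpx4 exist in the mouse genome, so these values are uncertain as far as reads were divided with a copy.

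**Figure D2:**
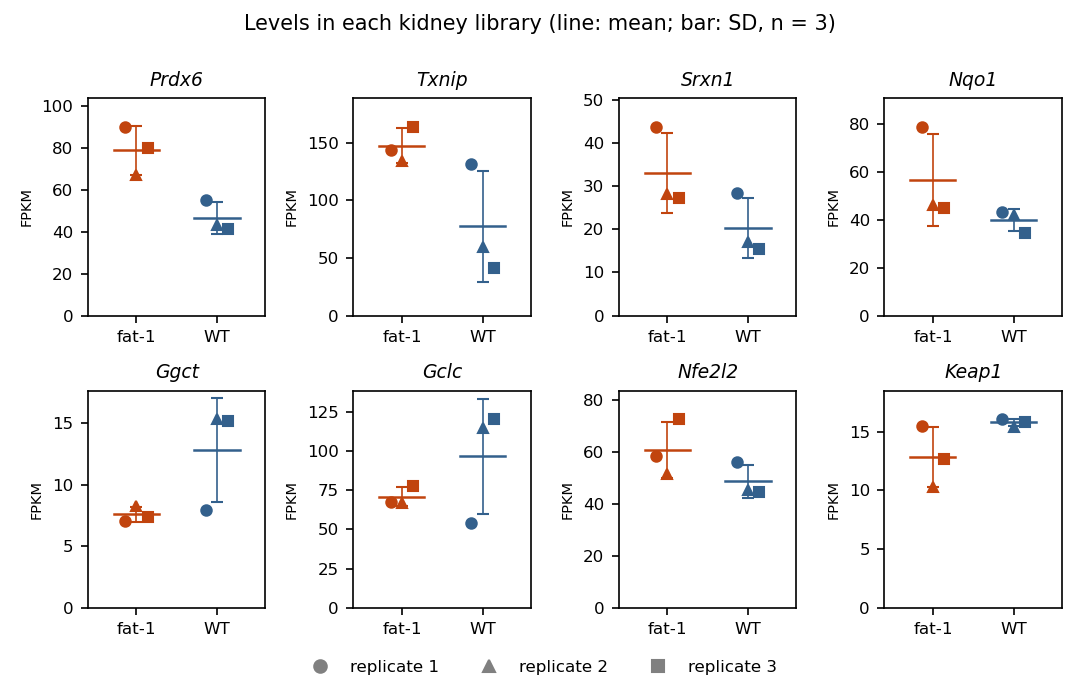
FPKM (y axis, from 0) in each library of 8 genes, fat-1 left of WT; points are libraries, horizontal lines means and bars SD (n = 3). Prdx6 libraries separate by group, Txnip and Nqo1 libraries do so narrowly, and WT replicate 1 lies with the fat-1 libraries for Ggct and at or below them for Gclc.

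Superoxide dismutases, which turn superoxide into hydrogen peroxide, did not differ beyond their spread. Sod1, the cytosolic copper and zinc form, had 879, 779 and 769 FPKM in fat-1 kidneys, against 560.1, 769 and 939 FPKM in WT kidneys, with a log2 difference of 0.13 ± 0.20 (SE). Sod2, the mitochondrial manganese form, had 81.9, 78.3 and 72.1 FPKM in fat-1 kidneys, against 76.2, 86.9 and 92.2 FPKM in WT kidneys, with -0.13 ± 0.12 (SE). Both genes were highest in WT replicate 3. Sod3, the secreted form, had 102, 93.3 and 90.9 FPKM in fat-1 kidneys, against 99.8, 111 and 113 FPKM in WT kidneys, with a log2 difference of -0.18 ± 0.11 (SE; adjusted p = 0.730). Only fat-1 replicate 1 reached above the lowest WT library of Sod3.

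The glutathione peroxidases hold the highest and the most variable of the 44 genes. Gpx3, the secreted enzyme of the proximal tubule (chromosome 11, 54902453 to 54910377), was first of the 44 in mean level, with 7548, 7652 and 2223 FPKM in fat-1 kidneys, against 6119, 5339 and 1449 FPKM in WT kidneys. In each group 1 library, replicate 3, was far below the others. The log2 difference of 0.48 ± 0.70 (SE) therefore had an interval from -1.19 to 2.15. Replicate numbers were given in accession order and do not pair the libraries.

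Gpx1, the widespread intracellular enzyme that reduces hydrogen peroxide (chromosome 9, 108339054 to 108340343), had 1373, 283 and 182 FPKM in fat-1 kidneys, against 309.9, 291 and 1498 FPKM in WT kidneys. The high libraries, fat-1 replicate 1 and WT replicate 3, were those in which many members were highest, but the size was of another order: the highest library was 8.25 times the lowest. Among 674 genes with a mean of at least 100 FPKM, Gpx1 was the 1 gene with both of these libraries over 2 times every other library. Gpx3 was likewise the 1 gene with fat-1 replicate 3 and WT replicate 3 both below 0.5 times every other library. These library pairs and limits were set from the values of Gpx1 and Gpx3, so that each gene met its own was fixed in advance. Rhoa, the gene that precedes Gpx1 on chromosome 9, had 161, 138 and 149 FPKM in fat-1 kidneys, against 137, 138 and 145 FPKM in WT kidneys, and was level. Tnip1, which lies next to Gpx3 on chromosome 11, had 6.03, 5.28 and 7.34 FPKM in fat-1 kidneys, against 9.50, 6.20 and 5.63 FPKM in WT kidneys.

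Gpx4, which reduces lipid peroxides within membranes and holds off ferroptosis, had 615, 468 and 437 FPKM in fat-1 kidneys, against 439, 472 and 579.6 FPKM in WT kidneys. The groups overlapped throughout, and the log2 difference was 0.02 ± 0.18 (SE). Of the 674 genes, 26 had a highest library over 4 times the lowest, and 2 of the 19 members at that level, Gpx1 and Gpx3, were among them. What sets the levels of these genes apart between libraries was not tested.

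**Figure D3:**
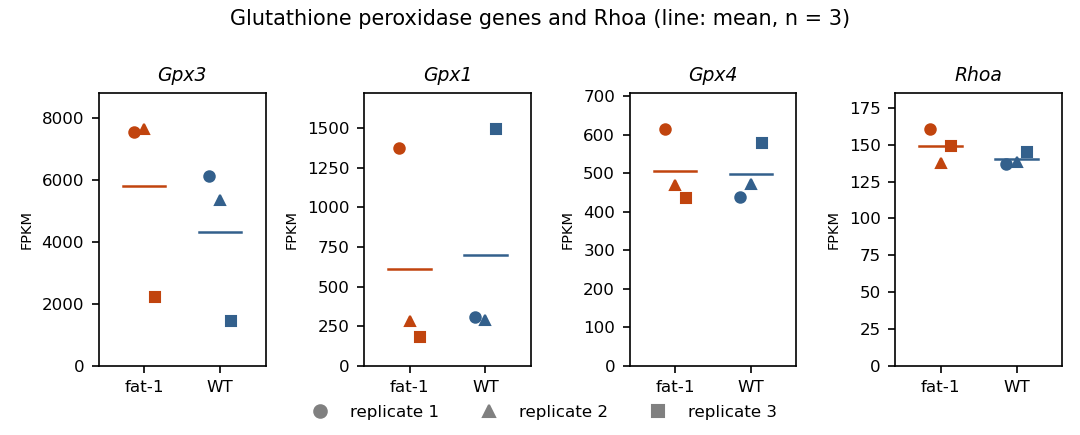
FPKM (y axis, from 0) of Gpx3, Gpx1, Gpx4 and Rhoa in each library, fat-1 left of WT, with lines for the means (n = 3). Gpx1 is high in fat-1 replicate 1 and WT replicate 3 and Gpx3 is low in replicate 3 of both groups, while Rhoa, the neighbour of Gpx1, stays between 137 and 161 FPKM.

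Glutaredoxins use glutathione to reduce disulfides or to build iron-sulfur clusters. Glrx5, a mitochondrial member needed for iron-sulfur clusters, had 26.7, 19.9 and 21.005 FPKM in fat-1 kidneys, against 17.4, 18.4 and 21.5 FPKM in WT kidneys, with a log2 difference of 0.22 ± 0.15 (SE; adjusted p = 0.744). Its groups overlapped, and the difference was 0.10 without fat-1 replicate 1. The 4 glutaredoxin genes had log2 differences between -0.00084 and 0.22 and means from 10.7 to 47.1 FPKM. Msra, which repairs oxidised methionine, had 180.0, 174 and 145 FPKM in fat-1 kidneys, against 127, 156 and 159 FPKM in WT kidneys, with a log2 difference of 0.17 ± 0.15 (SE; adjusted p = 0.827), or 0.070 without WT replicate 1. Msrb1 and Msrb2, which act on the other stereoisomer of methionine sulfoxide, differed by 0.02 and 0.12.

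Oxidant sources and metal binders were examined with the defences. Nox4, the NADPH oxidase of kidney tubules, which releases hydrogen peroxide, had 55.5, 86.02 and 58.9 FPKM in fat-1 kidneys, against 60.9, 51.3 and 49.2 FPKM in WT kidneys. The library of fat-1 replicate 2 alone was far above the rest, and the log2 difference was 0.29 ± 0.19 (SE; adjusted p = 0.744), or 0.092 without that library. The transcript Nox4-202 had 11.5, 33.7 and 0.712 FPKM in fat-1 kidneys, against 15.5, 14.2 and 6.96 FPKM in WT kidneys. Nox4-201, the main transcript, had 43.9, 51.4 and 58.0 FPKM in fat-1 kidneys, against 45.2, 36.0 and 42.3 FPKM in WT kidneys. Cyba, the membrane partner of NADPH oxidases, ran from 352 to 517 FPKM with a log2 difference of 0.04.

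The metallothionein Mt1 had 165, 116 and 110.1 FPKM in fat-1 kidneys, against 131, 117 and 163 FPKM in WT kidneys, with a log2 difference of -0.08 ± 0.20 (SE). Mt2 had 125, 68.9 and 83.0 FPKM in fat-1 kidneys, against 86.5, 67.8 and 89.9 FPKM in WT kidneys, with 0.14 ± 0.23 (SE). Both overlapped between groups. Metal response element letters, TGCGCNC or TGCACNC, were in both their promoter windows, against 15.4% and 12.6% of all windows. Sqstm1, an autophagy receptor that also draws KEAP1 away from NRF2, and Park7, a redox-sensitive protein, differed by 0.08 and -0.14.

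The members were also grouped in other ways. Of 10 classical NRF2 targets (Nqo1, Hmox1, Gclc, Gclm, Gsr, Txnrd1, Txn1, Srxn1, Prdx1 and Sqstm1), 7 had a positive log2 difference and the median was 0.04. The differences of these targets ran from -0.36 for Gclc to 0.69 for Srxn1. Of 7 genes for mitochondrial forms, 6 were positive; the median was 0.11, with a range from -0.13 for Sod2 to 0.22 for Glrx5. Of 6 selenoprotein genes 5 were positive, with a median of 0.05. No gene in these groups was called, and the groups were put together after the values had been seen.

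The libraries differed in a way that crossed the groups. Of all 6, fat-1 replicate 1 was the highest library for 23 of the 44 genes, against 16.1% of all tested genes. WT replicate 3 was the highest for 10 of the 44, against 15.2% of all tested genes. WT replicate 1 was the lowest for 14 of the 44, against 12.0% of all tested genes. Relative to each gene's mean over all libraries, the median log2 deviation of the 44 genes was 0.22, -0.07 and -0.08 in the fat-1 libraries, and -0.10, -0.07 and 0.14 in the WT libraries. Over all tested genes these medians lay between -0.06 and 0.08.

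In fat-1 replicate 1 and WT replicate 3, genes with short transcripts also tended to lie above their mean. The 899 tested genes whose highest transcript was under 1000 bases had median deviations of 0.15, -0.13 and -0.08 in the fat-1 libraries and of -0.02, -0.08 and 0.17 in the WT libraries. The 44 genes were shorter than most, with a median of 1727 bases against 2821 over all tested genes. The 9 members under 1000 bases deviated by 0.24 in fat-1 replicate 1 and by 0.22 in WT replicate 3. The 15 members between 1000 and 2000 bases deviated by 0.22 in fat-1 replicate 1, where all 2731 tested genes of that length deviated by 0.09. In WT replicate 3 the deviations were 0.07 for these 15 members and 0.06 for all tested genes of that length. In WT replicate 1 these deviations were -0.10 for the members and 0.02 for all tested genes of that length. The part of transcript length in the members' deviations was not tested further.

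**Figure D4:**
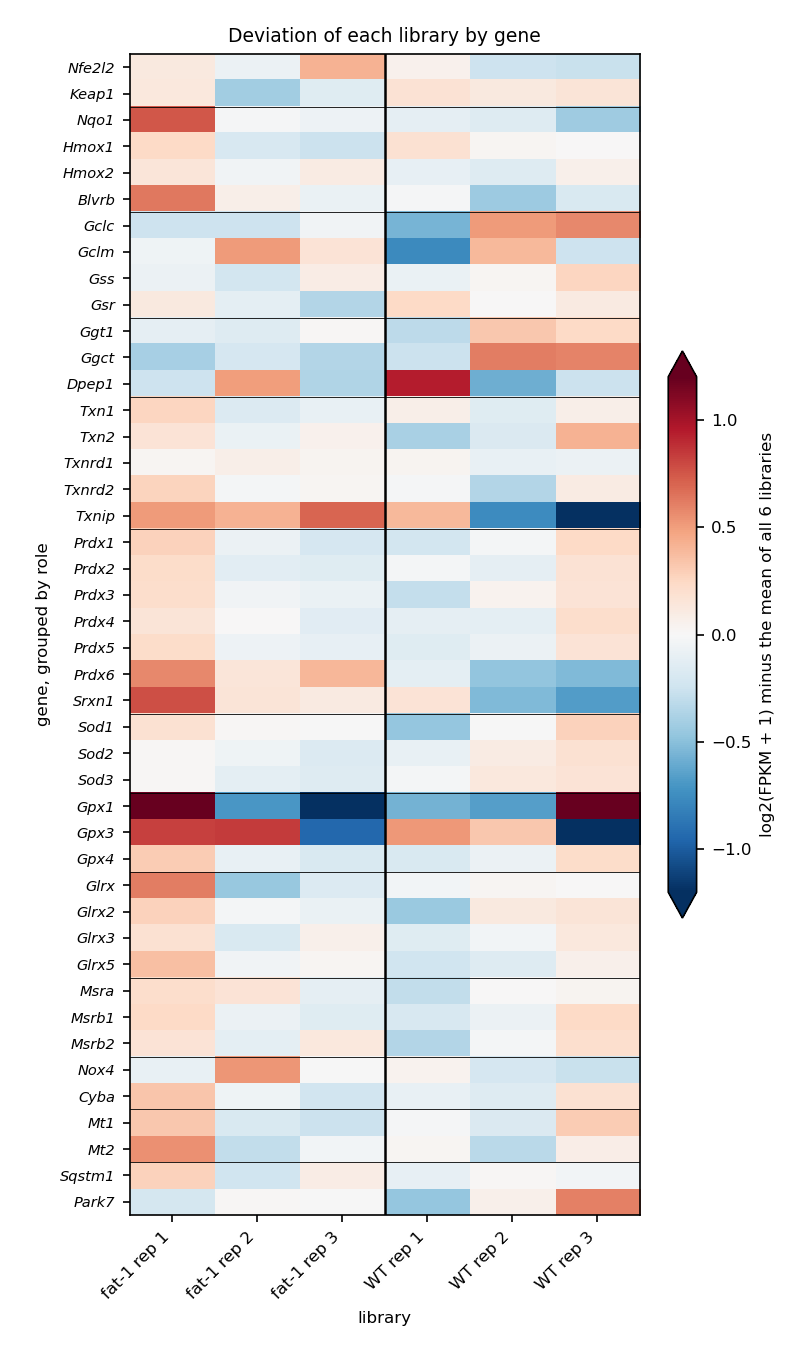
Log2(FPKM + 1) of each library (x axis, fat-1 left of WT) minus the mean of all 6 libraries, for the 44 genes (y axis) grouped by role; red is above and blue below the mean, and the colour scale ends at 1.2. The library of fat-1 replicate 1 is above the mean for 36 genes and WT replicate 3 for 32, and WT replicate 1 differs from the other WT libraries for Gclc, Ggct, Txnip and Srxn1.

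WT replicate 1, the library with the high macrophage markers, lay nearer to the fat-1 mean than to the mean of the other WT libraries for 33 of the 44 genes, or 75%, against 57.7% of all tested genes. Without it, 0 of 44 genes were called (0.222% of all tested genes), and 6 had an unadjusted p under 0.05, which is 13.6% against 13.7% of all tested genes. These were 3 on the higher side, Txnip, Prdx6 and Srxn1, or 6.82% against 8.94% of all tested genes. On the lower side were 3, Ggct, Gclc and Ggt1, or 6.82% against 4.75% of all tested genes. Groups did not overlap for 14 of 44, or 31.8%, against 32.3% of all tested genes. The fat-1 libraries were above for 8, or 18.2% against 20.6% of all tested genes, and below for 6, or 13.6% against 11.7%.

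The tables give transcripts, so members were also tested by transcript. Of 134 member transcripts, 107 were tested and 0 were called, against 0.0584% of all 17119 tested transcripts. An unadjusted p under 0.05 was found for 4, or 3.74%, against 8.13% of all tested transcripts, and groups did not overlap for 9, or 8.41%, against 14%. Txnip-202 had 26.5, 51.0 and 66.7 FPKM in fat-1 kidneys, against 17.8, 15.6 and 11.1 FPKM in WT kidneys. Every fat-1 library was clear of the WT libraries for this transcript, WT replicate 1 included, whereas Txnip-201 overlapped. The log2 difference of Txnip-202 was 1.56 ± 0.36 (SE; limma adjusted p = 0.290 over all transcripts).

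Prdx6-202, which holds nearly all of the Prdx6 level, differed by 0.75 ± 0.17 (SE; adjusted p = 0.282). Keap1-201 had 4.05, 3.49 and 2.67 FPKM in fat-1 kidneys, against 5.24, 6.35 and 9.67 FPKM in WT kidneys, a log2 difference of -0.85 ± 0.26 (SE; adjusted p = 0.443). Its groups did not overlap, while those of Keap1-202 did, with a difference of -0.01. Ggt1-219 had 67.8, 52.9 and 45.6 FPKM in fat-1 kidneys, against 69.0, 83.8 and 105.6 FPKM in WT kidneys, a log2 difference of -0.62 ± 0.21 (SE; adjusted p = 0.525).

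Transcript shares also differed between single libraries of a group. In 10 of the 30 members with more than 1 transcript, a transcript's share of the gene sum ranged by over 25 percentage points over the libraries. Sqstm1-205 held 49.7% of Sqstm1 in fat-1 replicate 2 and was listed at 0 in the other libraries, while the Sqstm1 sum ran only from 182 to 259 FPKM. Gss-201 held 47.1%, 24.8% and 7.23% of Gss in fat-1 kidneys, against 7.28%, 51.1% and 5.89% in WT kidneys. Park7-203 held 37.5% of Park7 in WT replicate 1 and at most 0.694% elsewhere. The sources used here do not give how reads were divided between transcripts of a gene, so these shares are described and not compared by genotype. The differences given above for single transcripts of Txnip, Keap1 and Ggt1 are uncertain for the same reason.

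**Figure D5:**
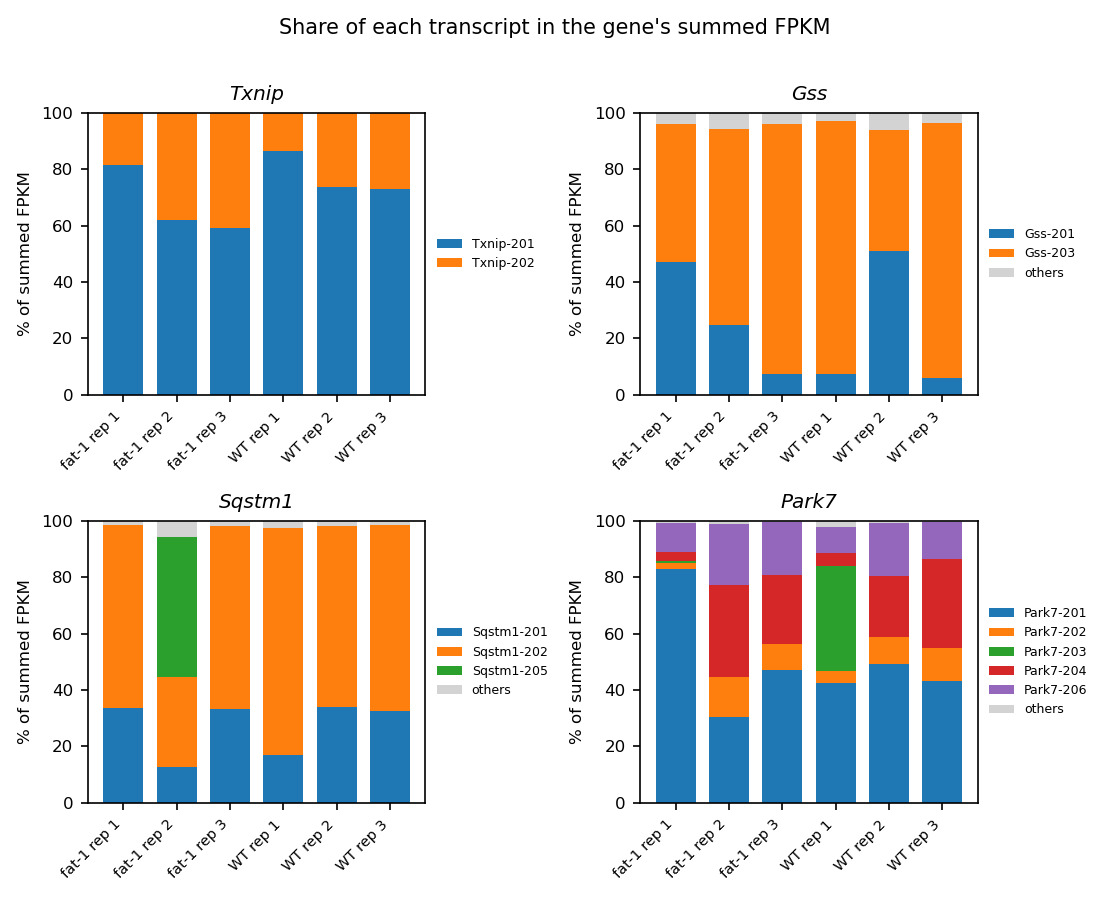
Share of the gene's summed FPKM (y axis, percent) held by each transcript of Txnip, Gss, Sqstm1 and Park7 in each library (x axis, fat-1 left of WT); transcripts that never reach 10% are joined as others. Sqstm1-205 appears in fat-1 replicate 2 and Park7-203 takes 37.5% in WT replicate 1, while Gss-201 is high in 1 or more libraries of each group.

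Other genes of the same pathways were read out of the same test from a list of 84, of which 75 were tested. Again 0 were called. An unadjusted p under 0.05 was found for 12 of 75, or 16% against 9.97% of all tested genes, and the groups did not overlap for 15, or 20% against 15.2%. The list was written with earlier results of these data known, so these shares are no result about the list. Oplah, which opens 5-oxoproline in the glutathione cycle downstream of Ggct, had 66.4, 57.5 and 49.0 FPKM in fat-1 kidneys, against 27.0, 31.8 and 24.6 FPKM in WT kidneys. All fat-1 libraries were well above all WT libraries. The log2 difference of Oplah was 1.02 ± 0.16 (SE; limma adjusted p = 0.0728), and the gene was called only when libraries were scaled to the same summed FPKM (adjusted p = 0.0490). Over the alternatives tried, its difference lay between 0.83 and 1.13, with limma adjusted p between 0.0490 and 0.529.

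Cbs, which starts the conversion of homocysteine to cysteine, had 28.5, 35.0 and 52.6 FPKM in fat-1 kidneys, against 79.7, 79.3 and 74.4 FPKM in WT kidneys. All fat-1 libraries were below all WT libraries, and the log2 difference was -1.03 ± 0.22 (SE; adjusted p = 0.142). Cat, catalase, which removes hydrogen peroxide in peroxisomes, had 581, 525 and 455 FPKM in fat-1 kidneys, against 285, 405 and 319.8 FPKM in WT kidneys. Its groups did not overlap, with a log2 difference of 0.63 ± 0.17 (SE; adjusted p = 0.249). Selenop, the selenium carrier, had 644, 728 and 585 FPKM in fat-1 kidneys, against 837, 1109 and 1188 FPKM in WT kidneys. It too was separated by group, with a log2 difference of -0.67 ± 0.17 (SE; adjusted p = 0.229).

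Of the remaining genes with the smallest p in that list, Maob, a mitochondrial amine oxidase that releases hydrogen peroxide, differed by 0.96 and Pxdn, a matrix peroxidase, by 0.73. Chac2, a cyclotransferase that acts on glutathione, differed by -0.38 and Dao, a peroxisomal D-amino acid oxidase, by -0.29. None of these was called (adjusted p between 0.205 and 0.461), and in all 4 the fat-1 and WT libraries did not overlap. By list, 11 of 16 genes for selenoproteins and the selenocysteine machinery had a negative difference (median -0.02). That list also counts Msrb3, which is not a selenoprotein. Of 12 other thioredoxin fold proteins and relatives of Txnip, 8 had a positive difference (median 0.19). The relatives, Arrdc3 and Arrdc4, lack that fold and had positive differences of 1.58 and 0.29. Slc7a11, the cystine carrier that is a known NRF2 target, was not among the tested genes and was not analysed here.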

How the data were processed

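The 6 kidney libraries (3 fat-1, 3 WT) were grouped by the genotype in the labels. Each sample's table holds FPKM per transcript as deposited by the authors. Tools named in the submitters' processing notes are DESeq2 1.20.0, featureCounts 1.5.0-p3 and HISAT2 2.0.5, with mm10 as the build; what made the FPKM was not given in the sources used here. Transcripts listed reach at least 0.5 FPKM in some library, and read depth is unknown, so no counting intervals are given.

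FPKM were summed per gene identifier (13696 genes from 27486 transcripts), and symbols turned into dates were restored on 64 lines. Genes reaching 1 FPKM in 3 or more libraries, 11698 in all, entered limma 3.58.1 (R 4.3.3) as log2(FPKM + 1), with trend and robust variance, no covariates and no rescaling. A pseudocount of 1 understates changes of low genes. P-values were adjusted by Benjamini-Hochberg over all tested genes (threshold 0.05). The code was checked on simulated data. No 2 libraries held identical gene values, with correlations of log2 values of 0.938 to 0.972.

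Values in every library are given for the 14 members with the smallest p, the 6 with the highest mean and a fixed set of 16; of other pathway genes the 8 with the smallest p, Cat and Slc7a11 are named, and of transcripts those with p under 0.05. Members and lists were chosen with earlier results of these data known. The 3 groups of NRF2 targets, mitochondrial forms and selenoproteins, Gss, Sqstm1 and Park7 shares, and the stricter motif were added after the data were seen. The same holds for the library pairs and limits used for Gpx1 and Gpx3, and for their neighbouring genes. Beside the 8 kidney markers used, 1 is not reported here. Transcript lengths came from GENCODE M21. Python 3.11.15 with pandas 2.3.3 and matplotlib 3.10.9 was used. Alternatives covered filters, pseudocount, scaling, robust estimation, each library left out and the highest transcript alone.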

Additional observations from a re-analysis of the deposited data

How the results depend on the processing

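Of the 44 genes, 0 were called under each of the alternatives run, and the same held for their transcripts. The number of all tested genes called, 21, was 4 with no filter on low values, 42 with at least 5 FPKM in 3 libraries, 52 when scaled to the same summed FPKM, 33 when that sum left out mitochondrially encoded genes, 8 with median-of-ratios factors, 34 with quantile normalization and 3 from the highest transcript alone. It ran from 0 to 26 with 1 library left out and was 0 with WT replicate 1 and fat-1 replicate 3, or WT replicate 3 and fat-1 replicate 1, left out together, alternatives chosen after seeing the data. The cause was not tested. Other pathway genes gave 1 call, Oplah, when scaled to the same summed FPKM. The median difference of the 44 genes ran from -0.0524 without fat-1 replicate 1 to 0.14 without WT replicate 3. No difference that changed sign was called. From the highest transcript alone these were -0.37 for Txnrd2, -0.0126 for Hmox2, -0.36 for Sqstm1, -0.0195 for Cyba. With median-of-ratios factors they were -0.00130 for Msrb1, -0.00736 for Prdx4, -0.0184 for Txn1, -0.0180 for Prdx1, and with quantile normalization -0.0304 for Txn1, -0.00262 for Prdx1. Scaled to the same summed FPKM, the difference of Glrx was 0.0164, and 0.00804 when mitochondrially encoded genes were left out of that sum. With 1 or 2 libraries left out, the sign changed for 23 genes, whose differences ran from -0.33 to 0.0114 for Hmox1, -0.0661 to 0.25 for Msrb2, -0.47 to 1.45 for Gpx3, -0.0728 to 0.30 for Sod1, -0.0939 to 0.33 for Mt2, -0.0805 to 0.22 for Glrx2, -0.0344 to 0.22 for Sqstm1, -0.43 to 0.20 for Park7, -0.0779 to 0.33 for Txn2, -0.26 to 0.0539 for Mt1, -0.0733 to 0.15 for Prdx3, -1.18 to 0.46 for Gpx1, -0.0476 to 0.14 for Glrx3, -0.0644 to 0.13 for Prdx5, -0.15 to 0.0509 for Prdx2, -0.12 to 0.16 for Cyba, -0.38 to 0.54 for Dpep1, -0.13 to 0.14 for Gpx4, -0.0944 to 0.14 for Msrb1, -0.0609 to 0.12 for Prdx4, -0.13 to 0.0862 for Txn1, -0.13 to 0.12 for Prdx1, -0.31 to 0.23 for Glrx. No paired analysis was possible because the labels give the groups no shared replicate numbers. Read depth is unknown, so precision rests on 3 libraries per group.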

Other observations

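A few more of the other pathway genes are given here, named after their values were seen. Arrdc3, an alpha-arrestin related to Txnip, had 13.5, 8.75 and 36.5 FPKM in fat-1 kidneys, against 2.36, 4.01 and 10.8 FPKM in WT kidneys. Its fat-1 replicate 2 lay below WT replicate 3, so the groups overlapped, and the log2 difference was 1.58 ± 0.62 (SE; limma adjusted p = 0.464). Arrdc4, another relative, differed by 0.29 ± 0.31 (SE), and its highest library was WT replicate 1. Maoa, an amine oxidase related to Maob, had 3.91, 3.39 and 3.99 FPKM in fat-1 kidneys, against 2.93, 2.32 and 2.82 FPKM in WT kidneys, a log2 difference of 0.37 ± 0.15 (SE; adjusted p = 0.496). Erp44, a thioredoxin fold protein of the endoplasmic reticulum, had 34.0, 32.9 and 33.3 FPKM in fat-1 kidneys, against 37.4, 39.9 and 41.4 FPKM in WT kidneys, a log2 difference of -0.24 ± 0.10 (SE; adjusted p = 0.497). The groups did not overlap for Maoa and Erp44, and neither was called.

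Of 8 genes that supply NADPH, 0 were called and 4 had a positive difference. Tkt, transketolase of the pentose phosphate pathway, had 33.9, 26.4 and 21.02 FPKM in fat-1 kidneys, against 41.3, 33.9 and 36.1 FPKM in WT kidneys, a log2 difference of -0.46 ± 0.18 (SE; adjusted p = 0.479). Fth1, the ferritin heavy chain that stores iron, was the highest of the other pathway genes, with 3555, 2795 and 3061 FPKM in fat-1 kidneys, against 2288, 2629 and 2944 FPKM in WT kidneys, and its groups overlapped.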
